A study of Mus musculus with 18 samples.

Results

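The genes of glucose breakdown, lactate handling and the hypoxia response were described in macrophages that lacked or overexpressed glucocorticoid-induced leucine zipper (GILZ). The group comprised 35 named genes of the 38887 genes measured, chosen by name, and all 35 were found by symbol in the authors' tables and by identifier in every library. RNA-Seq was performed on bone marrow-derived macrophages (BMMs) of female C57BL/6J mice that had been differentiated for 6 days with 50 ng/ml M-CSF. Cells of 3 genotypes were left untreated or exposed for 4 h to 100 ng/ml lipopolysaccharide (LPS), the endotoxin of Gram-negative bacteria, with 3 preparations per group and 18 libraries in all. WT animals were Lyz2-Cre mice, in which the myeloid Lyz2 promoter drives Cre recombinase. GILZ KO animals carried in addition a Tsc22d3 gene with loxP sites on both sides of exon 6, and GILZ TG animals a Gilz cDNA in the ROSA26 locus behind a loxP-flanked stop cassette. By this description all groups carried the Cre allele, but the level of Lyz2 given below set WT apart. The number of reads on genes lay between 14583055 and 38557029 per library, with a median of 24450362 and the lowest depth in GILZ KO after LPS (median 15491518).

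Glycolysis converts glucose to pyruvate. Glucose enters through transporters of the Slc2a family, is trapped by hexokinases and is committed to breakdown by phosphofructokinase, which the Pfkfb enzymes stimulate through fructose 2,6-bisphosphate. Pyruvate is reduced to lactate by lactate dehydrogenase and leaves the cell through Slc16a transporters, or it enters the mitochondrion unless pyruvate dehydrogenase kinases (Pdk) close that path. The transcription factor HIF-1, whose alpha subunit is marked for degradation by the Egln prolyl hydroxylases and the Vhl ubiquitin ligase, switches on many of these genes when oxygen is low, and macrophages activated by LPS are known to use it as well.

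Before the comparisons, the libraries were checked against their labels. Tsc22d3 (ENSMUSG00000031431, chromosome X of GRCm38, 140539528 to 140600659), the gene of GILZ, was at 15.8, 14.9 and 18.8 TPM in untreated WT, at 1.89, 2.81 and 2.31 TPM in GILZ KO and at 156, 159.8 and 152 TPM in GILZ TG. TPM relates the reads of a gene to its transcript length and to the total of the library. After LPS the WT libraries were at 4.56, 5.81 and 5.09 TPM, the GILZ KO libraries at 2.96, 3.28 and 2.5 TPM and the GILZ TG libraries at 127, 141 and 127 TPM. The 3 genotypes did not overlap in either treatment. The log2 fold change of GILZ KO against WT was -2.74 without treatment (SE, the standard error, 0.14, edgeR adjusted p = 2.16e-05) and -0.69 after LPS (SE 0.14, edgeR adjusted p = 0.15), the latter not past the threshold.

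Other features separated libraries. Lyz2, which encodes lysozyme and holds the Cre gene, was at 12840 ± 2276 TPM (SD, n = 3) in untreated WT but at only 33.6 ± 10.6 in GILZ KO and 33.0 ± 18.3 in GILZ TG, so that WT stood apart from both other genotypes at the Cre locus. These levels go against the same Cre genotype in all groups, and in comparisons with WT an effect of GILZ and one of the Cre or Lyz2 dose cannot be told apart. All 8 macrophage markers were above 1 TPM in every library, with Cd68 as the most abundant one in GILZ KO and GILZ TG and Lyz2 in WT. GILZ TG replicates 1 and 2 held more transcripts of other cell types than the other libraries. Their 8 fibroblast markers summed to 104 and 120 TPM without treatment and 83.4 and 115 TPM after LPS, with 6 of the 8 above 1 TPM and Col1a1 as the most abundant gene, whereas the other 14 libraries had 5.09 to 22.9 TPM. Their 7 B cell markers summed to 91.5 and 153 TPM without treatment and 79.5 and 145 TPM after LPS, led by Igkc and with Pax5 at 0 in 3 of these 4 libraries, against 16.8 to 35.9 TPM elsewhere. Their 8 neutrophil markers summed to 187 and 483 TPM without treatment and to 218 and 516 TPM after LPS, led by S100a9, against 20.7 to 83.5 TPM in the others. Ly6g and Elane were at 0 in both treatments of GILZ TG replicate 1. Summed endothelial, T cell and erythroid markers reached at most 41.8, 3.69 and 1.37 TPM in any library. In such bulk samples, fewer cells of one type and less RNA per cell cannot be told apart.

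The first comparison asked which members responded to LPS in each genotype. Expected counts were fitted for all genes with edgeR's quasi-likelihood test after TMM normalization, which sets the bulk of the genes to no change, and p-values were adjusted over all 13169 genes tested with a threshold of 0.05. All 35 members were tested. In WT, 24 members changed, 15 of them higher and 9 lower after LPS. Among all genes 68.6% changed, 33.5% higher and 35.1% lower. In GILZ KO, 25 members changed, 18 higher and 7 lower, against 68.5% of all genes (33.2% higher and 35.4% lower). In GILZ TG, 22 members changed, 15 higher and 7 lower, against 68.7% of all genes (33.6% higher and 35.1% lower). The share of members that changed was 68.6%, 71.4% and 62.9% in the same order, close to that of all genes. The median log2 fold change of the members was 0.14, 0.22 and 0.11, and that of all genes -0.02 in each genotype. Since the p-values rest on preparations that the labels only number, they measure the spread between these samples.

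The scale decided the direction for part of the members. On the TPM scale the median of all genes fell by 0.62 (log2) in WT, by 0.64 in GILZ KO and by 0.62 in GILZ TG. The 20 genes with the largest rise in WT, led by the chemokine genes Cxcl10, Ccl3 and Ccl4, took 1.39% of all TPM in untreated WT and 10.96% after LPS. The corresponding values were 1.42% and 10.47% in GILZ KO and 1.41% and 10.49% in GILZ TG. "Rose" and "fell" therefore mean here relative to the bulk of the genes, and members whose TPM moved the other way are named. In WT, 9 of the 15 members called higher also had a higher TPM after LPS, and the other 6 had a lower one. All 15 lay above the median of all genes on the TPM scale. All 9 members called lower had a lower TPM as well. Tested on log2(TPM + 1) with limma, 8 members were higher and 23 lower in WT, 7 and 20 in GILZ KO and 7 and 24 in GILZ TG, against 16.1% and 64.9%, 15.3% and 66% and 15.6% and 65.2% of all genes. Aldoc, Tpi1, Pgam1, Pkm and Slc16a3, which the TMM fit called in no genotype, passed this test as lower in all 3, with no overlap between untreated and LPS libraries.

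**Figure D1:**
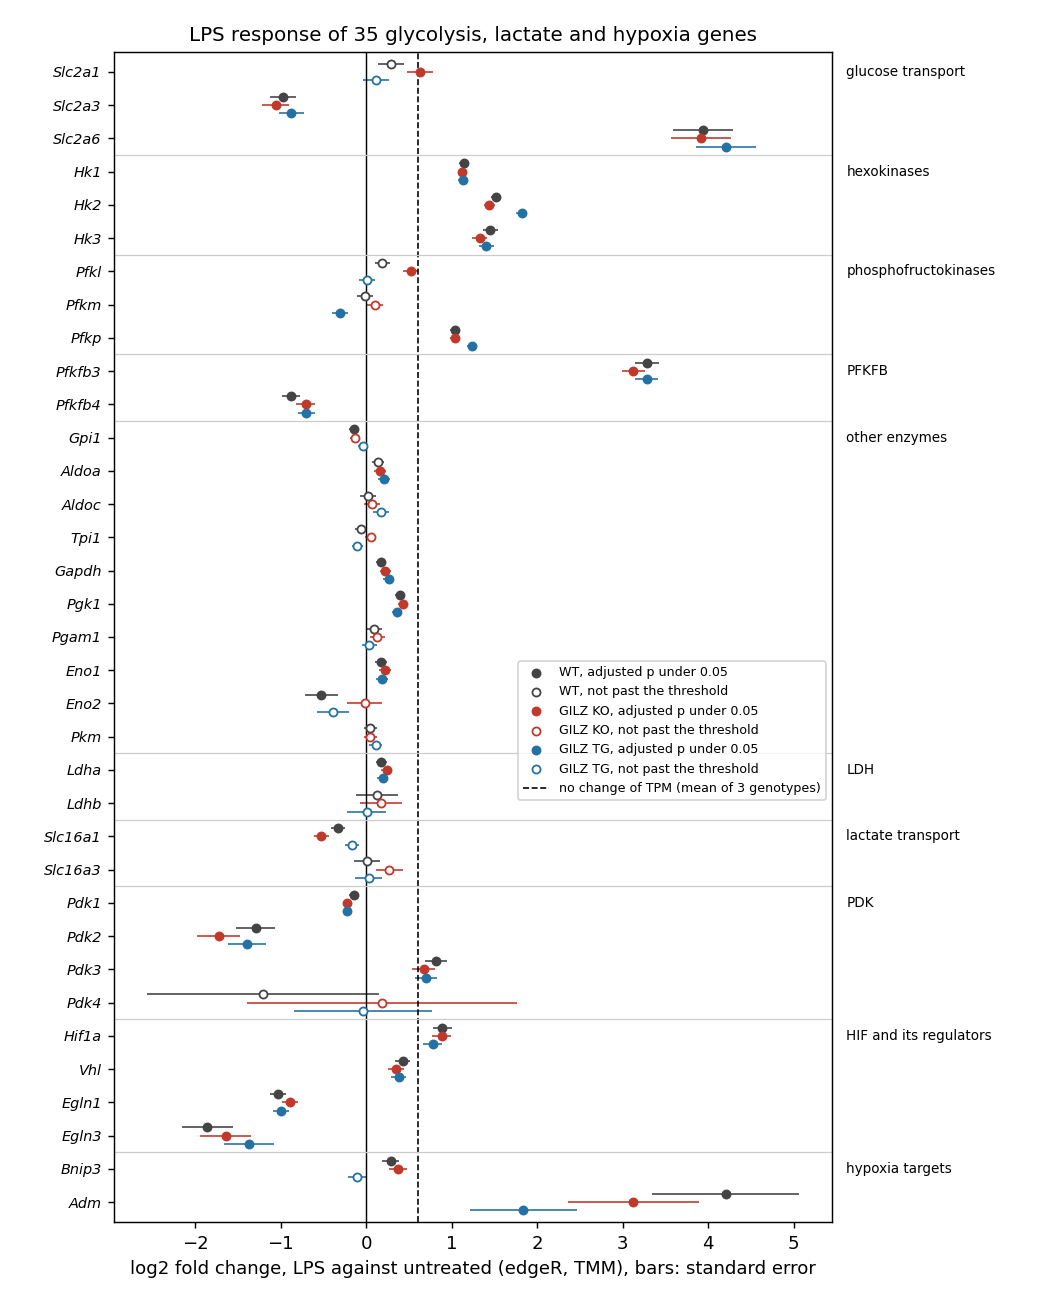
Log2 fold change of each member after LPS (x axis, TMM scale, bars show the standard error) in WT, GILZ KO and GILZ TG, ordered by role. Filled points passed the adjusted threshold, and the dashed line marks where TPM did not change, so that filled points between both lines rose relative to the bulk of genes while their TPM fell. Of the filled points, Slc2a6, Pfkfb3 and Adm lie farthest to the right, and Egln3, Pdk2, Egln1, Slc2a3 and Pfkfb4 farthest to the left, in all 3 genotypes, while Pdk4 (open, -1.20 in WT) has a wide bar.

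In all 3 genotypes 14 members rose, namely Slc2a6, Hk1, Hk2, Hk3, Pfkp, Pfkfb3, Gapdh, Pgk1, Eno1, Ldha, Pdk3, Hif1a, Vhl and Adm, of which Gapdh, Pgk1, Eno1, Ldha and Vhl had a lower TPM after LPS. In all 3 genotypes 6 members fell, namely Slc2a3, Pfkfb4, Pdk1, Pdk2, Egln1 and Egln3. Another 8 changed in 1 or 2 genotypes (Slc2a1, Pfkl, Pfkm, Gpi1, Aldoa, Eno2, Slc16a1 and Bnip3), and 7 in none (Aldoc, Tpi1, Pgam1, Pkm, Ldhb, Slc16a3 and Pdk4). No member was called in opposite directions in different genotypes. The share of all genes called alike in all 3 genotypes was not counted, so these numbers cannot be set against it. The calls of Adm rested on few reads, as given below. In GILZ TG, where the same-numbered libraries of both treatments deviated together, blocking on the preparation added calls for Aldoc (0.18, edgeR adjusted p = 0.0104) and Pkm (0.11, edgeR adjusted p = 0.0342), both higher with a lower mean TPM, and for Eno2, which was lower (-0.41, edgeR adjusted p = 0.00362).

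Shown are the promoters of the 2 members that rose most in WT on the TMM scale and of the member that fell most. They are the 250 bases before the start of transcription in the RefSeq table (GRCm38.p6), read 5′ to 3′ on the strand of the gene, with ACGTG and GCGTG on either strand in capitals. These letters form the core that HIF is known to bind. A loose form of the κB motif of NF-κB, 3 G and 2 C with any 5 bases between them, was also searched on both strands, and matches may overlap.
Slc2a6 (chr2:27027999-27028248, minus strand): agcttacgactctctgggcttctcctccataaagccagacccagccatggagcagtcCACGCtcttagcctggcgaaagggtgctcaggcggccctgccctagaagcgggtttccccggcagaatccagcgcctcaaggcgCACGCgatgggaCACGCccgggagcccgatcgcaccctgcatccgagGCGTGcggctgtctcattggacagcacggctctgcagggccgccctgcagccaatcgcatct
Adm (chr7:110627407-110627656, plus strand): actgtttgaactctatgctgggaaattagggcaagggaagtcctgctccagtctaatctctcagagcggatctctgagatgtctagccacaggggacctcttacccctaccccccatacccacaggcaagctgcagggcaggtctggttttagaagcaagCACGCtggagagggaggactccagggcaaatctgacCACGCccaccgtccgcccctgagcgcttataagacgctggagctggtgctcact
Egln3 (chr12:54203875-54204124, minus strand): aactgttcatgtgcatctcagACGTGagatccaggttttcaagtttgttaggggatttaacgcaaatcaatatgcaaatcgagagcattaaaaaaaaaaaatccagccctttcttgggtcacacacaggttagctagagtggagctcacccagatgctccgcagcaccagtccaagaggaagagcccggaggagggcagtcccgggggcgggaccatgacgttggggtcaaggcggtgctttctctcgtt

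The Slc2a6 promoter held 4 matches to GCGTG and 5 to the κB form, that of Adm 2 matches to GCGTG, and that of Egln3 1 match to ACGTG and 3 to the κB form. Over all 32851 promoters of the table, 16.6% held ACGTG, 28.2% GCGTG and 45.8% the κB form in these 250 bases. Of the members, 34 had an entry in the table, with 48 promoters in all, of which 43.8% held ACGTG, 52.1% GCGTG and 64.6% the κB form. Slc2a3 had none. A match describes the letters only, and base composition was not taken into account.

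Among the glucose transporters, LPS turned the order of the transcripts. Slc2a6, a transporter of the endolysosomal membrane, rose from 14.9, 22.6 and 37.7 TPM to 211, 229.8 and 311 TPM in WT. It rose from 25.3, 32.8 and 28.9 to 266, 291 and 256 TPM in GILZ KO, and from 16.9, 15.8 and 36.8 to 237, 242 and 338 TPM in GILZ TG. The LPS libraries all lay above the untreated ones, and replicate 3 was the highest of WT and of GILZ TG in both treatments. On the log2 scale the rise was 3.94 in WT (SE 0.35, edgeR adjusted p = 2.16e-08), 3.92 in GILZ KO and 4.21 in GILZ TG. Slc2a3, a high-affinity plasma membrane transporter, was at 11.01, 9.98 and 12.9 TPM in untreated WT and at 2.89, 3.38 and 4.87 TPM after LPS. In GILZ KO it went from 12.3, 13.8 and 11.8 to 3.31, 3.31 and 4.12 TPM, and in GILZ TG from 13.1, 11.6 and 13.6 to 4.82, 3.89 and 3.77 TPM. Its log2 fold change was -0.97 in WT (SE 0.15, edgeR adjusted p = 2.26e-05), -1.06 in GILZ KO and -0.87 in GILZ TG.

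Slc2a1, the common basal transporter, was at 102, 112 and 109 TPM in untreated WT, 107, 110.0 and 116 TPM in GILZ KO and 94.5, 93.3 and 112 TPM in GILZ TG. After LPS it was at 73.6, 82.3 and 99.5 TPM in WT, 111, 96.2 and 123 TPM in GILZ KO and 60.4, 60.4 and 90.3 TPM in GILZ TG. It was called higher in GILZ KO (log2 fold change 0.63, SE 0.15, edgeR adjusted p = 0.00143), where its TPM did not move (mean of 111 and 110.2 TPM). The values were 0.29 in WT and 0.12 in GILZ TG, neither past the threshold, though that in WT passed with the replicate block (adjusted p = 0.00442) and the 6 libraries compared (0.0385). Of the summed TPM of these 3 transporters, Slc2a1 made up 75.1% in untreated WT and 25.2% after LPS, and Slc2a6 17.0% and 73.7%. In GILZ KO, Slc2a6 went from 18.9% to 70.4%, and in GILZ TG from 16.4% to 78.6%.

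All 3 hexokinases, which phosphorylate glucose, rose in all genotypes on both scales. Hk3 was the most abundant, at 206, 203 and 200.4 TPM in untreated WT, 217, 211 and 218 TPM in GILZ KO and 217, 186 and 223 TPM in GILZ TG. After LPS it reached 401, 366 and 359 TPM in WT, 335, 383 and 369 TPM in GILZ KO and 380.0, 343 and 380.2 TPM in GILZ TG. Relative to the bulk of the genes, Hk3 rose by 1.45 (log2) in WT (SE 0.09, edgeR adjusted p = 1.68e-10), 1.33 in GILZ KO and 1.41 in GILZ TG. Hk1, the isoform of most tissues, was at 69.9, 69.3 and 61.4 TPM in untreated WT, 77.8, 76.1 and 78.2 TPM in GILZ KO and 81.2, 80.2 and 73.1 TPM in GILZ TG. After LPS the values were 102, 98.1 and 102 TPM, 111, 119 and 112 TPM and 113, 117 and 107 TPM in the same order. The response was even across genotypes, with a log2 fold change of 1.14, 1.13 and 1.13 (SE 0.05 each).

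Hk2, the inducible isoform, was at 28.7, 29.1 and 25.2 TPM in untreated WT, 34.8, 31.4 and 32.0 TPM in GILZ KO and 26.9, 27.4 and 24.7 TPM in GILZ TG. LPS brought it to 49.5, 51.6 and 54.9 TPM in WT, 59.6, 57.6 and 53.0 TPM in GILZ KO and 59.7, 67.8 and 55.6 TPM in GILZ TG. Here GILZ TG went from the lowest mean to the highest. Its log2 rise was 1.52 in WT (SE 0.06, edgeR adjusted p = 7.32e-13), 1.44 in GILZ KO and 1.82 in GILZ TG. Together the hexokinases went from 298 ± 9.47 to 528 ± 21.4 TPM in WT (SD, n = 3), with Hk3 at 68.3% and 71.1% of the sum.

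Of the phosphofructokinases, only Pfkp rose in all genotypes, and it did so on both scales. Pfkp, the platelet isoform, was at 96.8, 98.0 and 108 TPM in untreated WT, 107, 106 and 110.5 TPM in GILZ KO and 109, 94.4 and 110.4 TPM in GILZ TG. With LPS it reached 132, 128 and 124 TPM in WT, 146, 153 and 135 TPM in GILZ KO and 154, 154 and 155 TPM in GILZ TG. Its rise (log2) was 1.04 in WT (SE 0.06, edgeR adjusted p = 9.26e-11), 1.04 in GILZ KO and 1.24 in GILZ TG. Pfkl, the liver isoform, was at 48.1, 48.5 and 45.7 TPM in untreated WT, 44.0, 40.3 and 54.1 TPM in GILZ KO and 33.5, 38.3 and 37.1 TPM in GILZ TG. The LPS libraries were at 30.4, 30.9 and 39.7 TPM in WT, 44.3, 33.0 and 42.9 TPM in GILZ KO and 22.5, 23.5 and 23.0 TPM in GILZ TG. It was called higher in GILZ KO (log2 fold change 0.52, SE 0.09, edgeR adjusted p = 8.63e-05), where its TPM had a log2 difference of -0.20 with overlapping libraries, and not in WT (0.19) or GILZ TG (0.0062). The value in WT passed with DESeq2 (adjusted p = 0.0411), its size factors (0.0466), the replicate block (0.0111) and the 6 libraries compared (0.028).

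Pfkm, the muscle isoform, was at 13.0, 12.3 and 10.2 TPM in untreated WT, 12.7, 11.7 and 14.5 TPM in GILZ KO and 15.96, 15.0 and 12.5 TPM in GILZ TG. After LPS it was at 7.56, 7.76 and 7.63 TPM in WT, 8.83, 8.83 and 9.36 TPM in GILZ KO and 7.71, 7.73 and 7.22 TPM in GILZ TG. It fell in GILZ TG (log2 fold change -0.31, SE 0.09, edgeR adjusted p = 0.00695). Without GILZ TG replicates 1 and 2 the value was -0.13 (adjusted p = 0.513). Pfkp made up 63.0% of the summed phosphofructokinase TPM in untreated WT and 75.7% after LPS, 64.8% and 74.7% in GILZ KO, and 67.3% and 83.5% in GILZ TG.

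The PFKFB enzymes among the members, which set the level of the activator of phosphofructokinase, went in opposite directions on both scales. Pfkfb3, the isoform with the strongest kinase activity, was at 9.99, 8.72 and 7.14 TPM in untreated WT and at 69.2, 52.1 and 57.0 TPM after LPS. It went from 8.97, 10.0 and 9.55 to 49.9, 67.6 and 54.8 TPM in GILZ KO, and from 9.16, 9.9 and 7.74 to 58.2, 70.2 and 57.9 TPM in GILZ TG. Pfkfb3 thus had a log2 fold change of 3.28 in WT (SE 0.14, edgeR adjusted p = 7.32e-13), 3.13 in GILZ KO and 3.28 in GILZ TG. Pfkfb4 went from 20.4, 17.5 and 17.8 to 5.56, 5.52 and 8.74 TPM in WT, from 21.5, 20.05 and 18.7 to 8.11, 7.27 and 7.03 TPM in GILZ KO, and from 18.1, 20.3 and 18.6 to 7.39, 8.52 and 7.67 TPM in GILZ TG. Its log2 fold change was -0.87 in WT (SE 0.10, edgeR adjusted p = 9.72e-07), -0.71 in GILZ KO and -0.70 in GILZ TG. The share of Pfkfb3 in the sum of both thus went from 31.6% to 89.9% in WT, from 32.2% to 88.3% in GILZ KO and from 31.9% to 88.8% in GILZ TG.

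**Figure D2:**
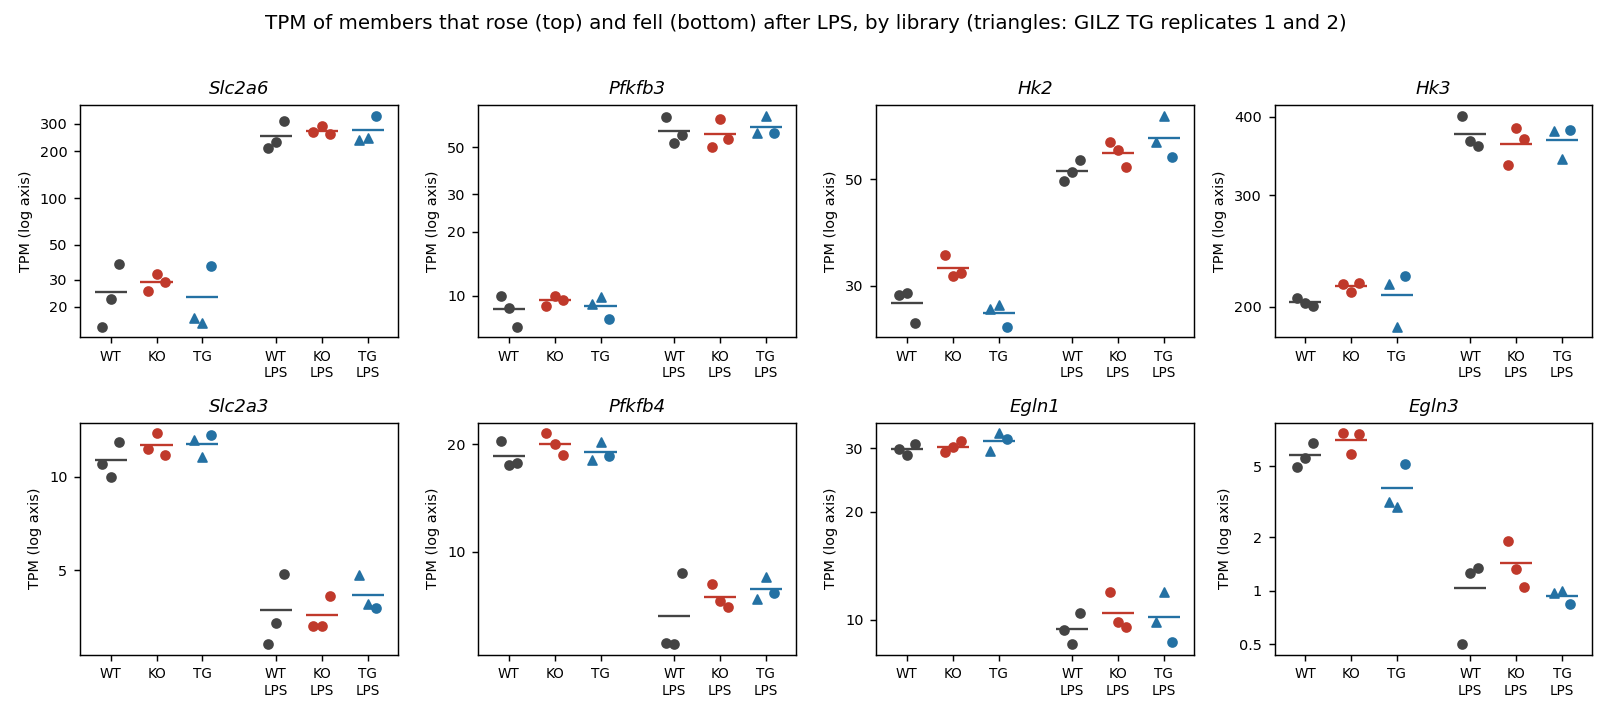
TPM (y axis, log scale) of 8 members in each library by genotype, untreated on the left and after LPS on the right of each panel, with a line at the mean of 3 libraries and triangles for GILZ TG replicates 1 and 2. The upper 4 genes rose and the lower 4 fell, and the untreated and LPS libraries of a genotype do not overlap in any panel.

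**Figure D3:**
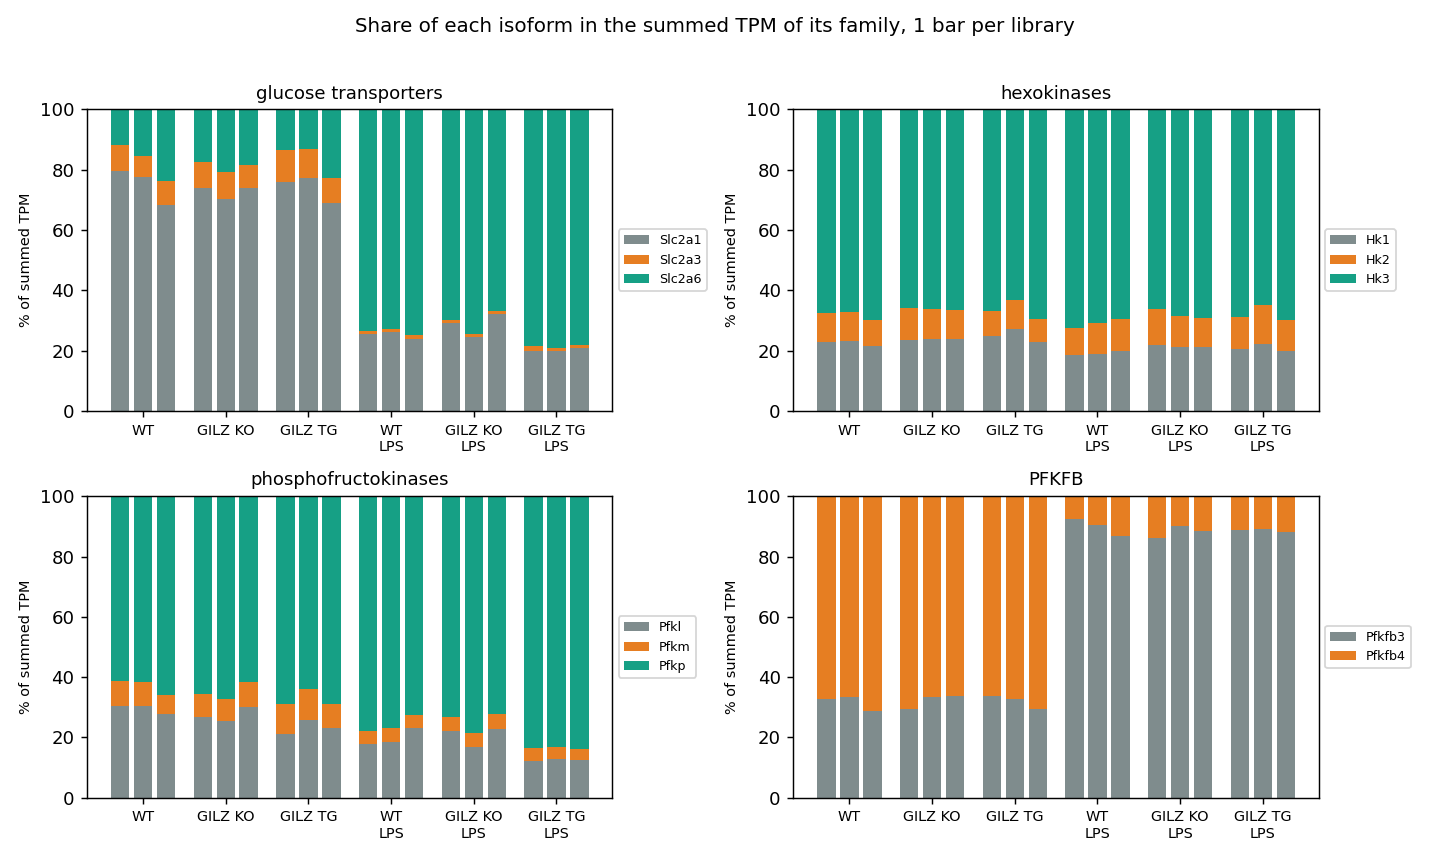
Percent of the summed TPM of the members of 4 gene families held by each isoform (y axis), 1 bar per library in the order of replicates 1 to 3. Isoforms that are not members were left out of the sums, so that the PFKFB sum holds Pfkfb3 and Pfkfb4 but not Pfkfb1 and Pfkfb2. After LPS, Slc2a6 took 66.8% to 79.0% of the glucose transporter sum and Pfkfb3 86.0% to 92.6% of the PFKFB sum, while the hexokinase shares changed little.

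Gapdh, Pkm, Aldoa, Pgk1, Eno1 and Ldha, the most abundant members, alone held 82.7% of the summed TPM of the glycolytic enzymes and lactate dehydrogenases in untreated WT and 81.2% after LPS. That whole sum took 1.35% ± 0.019 of all TPM in untreated WT and 1.01% ± 0.056 after LPS (SD, n = 3), 1.39% ± 0.038 and 1.05% ± 0.038 in GILZ KO, and 1.44% ± 0.047 and 1.095% ± 0.087 in GILZ TG. No LPS library reached an untreated one. Relative to the bulk of the genes, in contrast, Gapdh was called higher after LPS, by 0.18 in WT, 0.23 in GILZ KO and 0.26 in GILZ TG, while its TPM fell by 0.42, 0.40 and 0.37 (all log2). Gapdh, the glyceraldehyde phosphate dehydrogenase often used as a reference, was at 2801, 2712 and 2595 TPM in untreated WT and at 1890.0, 2049 and 2120.0 TPM after LPS. Pgk1, which forms ATP in the next step, had the largest positive value of these enzymes, 0.39 in WT, 0.43 in GILZ KO and 0.36 in GILZ TG, with a TPM that fell in all 3.

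Ldha, which makes lactate from pyruvate, was at 1136, 1159 and 1225 TPM in untreated WT, 1134, 1115 and 1189 TPM in GILZ KO and 1125, 1125 and 1139 TPM in GILZ TG. LPS libraries held 794, 853 and 925 TPM, 905, 829 and 887 TPM and 870.2, 841 and 784 TPM in the same order. Its TPM was lower in every LPS library, while its log2 fold change relative to the bulk of the genes was 0.18 in WT (SE 0.06, edgeR adjusted p = 0.0207), 0.24 in GILZ KO and 0.19 in GILZ TG. Ldhb, the subunit that favours the reverse reaction, was at 2.15, 2.16 and 1.76 TPM in untreated WT, 2.09, 2.66 and 4.07 TPM in GILZ KO and 2.65, 3.83 and 2.81 TPM in GILZ TG. After LPS the values were 1.68, 1.39 and 1.46 TPM, 2.27, 2.25 and 2.12 TPM and 1.88, 2.57 and 1.31 TPM, with no call. Ldha thus made up 99.8% of the lactate dehydrogenase TPM in WT in both treatments.

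Of the abundant enzymes called after LPS, Pgk1 in all 3 genotypes and Gapdh and Ldha in GILZ KO kept an adjusted p under 0.05 in all alternatives, with a highest value of 0.0131 for Pgk1 (GILZ TG), 0.0273 for Gapdh and 0.0209 for Ldha (GILZ KO), although TPM-based tests had the opposite sign. Other calls were close to the threshold. In WT, Gapdh, Eno1 and Ldha were not called when untreated replicate 1, untreated replicate 2 or LPS replicate 2 was left out (adjusted p from 0.0531 to 0.291 with edgeR), and Eno1 and Ldha not without LPS replicate 3 either (0.121 and 0.1). In GILZ KO, Eno1 was not called without untreated replicate 1 (0.053), untreated replicate 2 (0.0539) or LPS replicate 3 (0.0509). In GILZ TG, Eno1 was lost without any of the untreated replicates or LPS replicate 1 (0.0697 to 0.0826), and Ldha without untreated replicate 1 or 2 or LPS replicate 1 (0.0615 to 0.0684). Aldoa, called higher in GILZ KO (0.17) and GILZ TG (0.21) while its TPM fell, was lost in GILZ KO without any replicate but LPS replicate 2 (0.0893 to 0.238), and in GILZ TG without untreated replicate 2 or 3 or LPS replicate 1 (0.0504 to 0.0939). In WT, also with a lower TPM, Aldoa passed as higher with DESeq2 (0.16, adjusted p = 0.0295) and the replicate block (0.14, edgeR adjusted p = 0.0267). Gpi1 (-0.14) and Eno2 (-0.52) were called lower in WT, and Eno2 in GILZ TG with the preparation block as given above and without LPS replicate 1 (-0.55, adjusted p = 0.0322). In GILZ KO, Gpi1 (-0.13) passed with the stricter filter (0.0363), the replicate block (0.0267), the 6 libraries compared (0.0312) and without untreated replicate 1 (0.0233). Gpi1 was lost without WT LPS replicate 1 or 2 (0.107 and 0.0885) and Eno2 without WT untreated replicate 1 or LPS replicate 3 (0.143 and 0.126). Outside leave-one-out, the calls of Gapdh, Eno1 and Ldha in WT were also lost with no filter (0.151 to 0.177) and with only the 6 libraries compared (0.0521 to 0.109), and those of Eno1 and Ldha with the stricter filter (0.0746 and 0.0543). Those of Aldoa, Eno1 and Ldha in GILZ TG were lost with no filter (0.0745 to 0.106) and with the 6 libraries (0.0512 to 0.0998), and that of Aldoa in GILZ KO with no filter (0.185) and the stricter one (0.0647). Gpi1 in WT was lost with the size factors of DESeq2 (0.0564), and both Gpi1 and Eno2 with the 6 libraries (0.104 and 0.0626). Near-identical gene copies can share reads with these enzymes. Expected counts more than 0.005 reads from a whole number were found in all 18 libraries for Gpi1, Gapdh, Pgk1, Pgam1, Eno1 and Ldha, in 7 for Bnip3, in 6 each for Aldoa and Ldhb and in 1 each for Tpi1 and Pkm. Of the copies looked up, Pgk1-rs7 reached 15.2 TPM, Pgam1-ps2 6.92 TPM and Eno1b 3.13 TPM at most in any library.

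Of the lactate transporters, Slc16a1 fell in WT (-0.33, SE 0.08) and GILZ KO (-0.52, SE 0.09) but did not pass the threshold in GILZ TG (-0.16). In GILZ TG it was called lower without untreated replicate 1 (-0.24, edgeR adjusted p = 0.0336), without LPS replicate 2 (-0.24, edgeR adjusted p = 0.0249) and with replicate 3 alone (-0.45, edgeR adjusted p = 0.0041). Slc16a3, the exporter of glycolytic cells, was not called after LPS in any genotype. Among the alternatives it passed as higher in GILZ KO with the replicate block (0.27, edgeR adjusted p = 0.00213), while its TPM fell. It also passed there with the 6 libraries compared (0.26, edgeR adjusted p = 0.0134). The values of Slc16a3 by library are given with the genotypes below. Among the pyruvate dehydrogenase kinases, Pdk2 went from 4.28, 3.19 and 3.96 to 1.06, 1.26 and 0.75 TPM in WT, from 2.8, 4.93 and 5.23 to 1.22, 0.57 and 0.89 TPM in GILZ KO and from 5.17, 5.4 and 3.53 to 0.98, 1.83 and 1.11 TPM in GILZ TG. Its log2 fold change was -1.29 in WT (SE 0.23, edgeR adjusted p = 7.79e-05), -1.72 in GILZ KO and -1.39 in GILZ TG. Pdk1, the most abundant kinase, fell by 0.15, 0.22 and 0.23. In WT its call was lost without LPS replicate 1 (edgeR adjusted p = 0.0545) and with only the 6 libraries compared (0.054). Pdk3 rose by 0.82, 0.68 and 0.70. On the TPM scale its log2 differences were 0.26, 0.11 and 0.034, the untreated and LPS libraries overlapped in all 3 genotypes, and no limma test on TPM called it. Pdk3 made up 18.02% of the summed Pdk TPM in untreated WT and 30.9% after LPS. Pdk4 had at most 0.74 TPM in any library and was not called, with a log2 fold change of -1.20 in WT (SE 1.36, edgeR adjusted p = 0.448).

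The regulators of the hypoxia response moved apart. Hif1a, the oxygen-sensitive subunit of HIF-1, was at 79.5, 77.5 and 73.7 TPM in untreated WT, 85.2, 79.9 and 77.5 TPM in GILZ KO and 60.4, 63.0 and 73.9 TPM in GILZ TG. After LPS it was at 90.9, 87.0 and 98.3 TPM in WT, 98.4, 90.5 and 93.1 TPM in GILZ KO and 62.4, 67.9 and 87.3 TPM in GILZ TG. The groups did not overlap in WT and GILZ KO but did so in GILZ TG, whose replicates 1 and 2 were low in both treatments. On the TMM scale the log2 fold change was 0.89 in WT (SE 0.11, edgeR adjusted p = 1.06e-06), 0.88 in GILZ KO and 0.78 in GILZ TG. With limma on log2(TPM + 1) the rise did not pass in GILZ KO (0.22, adjusted p = 0.072) or GILZ TG (0.13, adjusted p = 0.266). Vhl rose by 0.43, 0.35 and 0.38 relative to the bulk of the genes, while its mean TPM was lower after LPS in each genotype with libraries that overlapped.

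Both prolyl hydroxylases fell. Egln1, the main oxygen sensor, went from 29.8, 28.8 and 30.8 to 9.36, 8.56 and 10.47 TPM in WT, from 29.3, 30.3 and 31.4 to 12.0, 9.89 and 9.57 TPM in GILZ KO and from 29.4, 33.0 and 31.8 to 9.85, 12.0 and 8.66 TPM in GILZ TG. Egln1 had a log2 fold change of -1.03 in WT (SE 0.09, edgeR adjusted p = 2.61e-08), -0.89 in GILZ KO and -0.996 in GILZ TG. Egln3, itself a hypoxia-inducible gene, went from 4.92, 5.58 and 6.76 to 0.5, 1.26 and 1.34 TPM in WT, from 7.67, 5.84 and 7.59 to 1.9, 1.33 and 1.05 TPM in GILZ KO and from 3.14, 2.96 and 5.18 to 0.97, 1.0 and 0.84 TPM in GILZ TG. It had the largest fall of all members in WT, with a log2 fold change of -1.86 (SE 0.29, edgeR adjusted p = 2.59e-05), and was at -1.64 in GILZ KO and -1.37 in GILZ TG. The untreated and LPS libraries of both genes did not overlap in any genotype.

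The 2 hypoxia targets differed in level. Adm, the precursor of the peptide adrenomedullin, had the largest log2 fold change in WT (4.21), but it was counted with only 1, 0 and 1 reads in untreated WT and 7, 6 and 13 reads after LPS. After allowance for library size, the ratio of LPS to untreated reads was 14.5 (95% exact interval 3.63 to 126, which covers counting error only). GILZ KO had a ratio of 5.95 (2.21 to 20.04) and GILZ TG one of 2.37 (1.24 to 4.85). In TPM, Adm was at 0.05, 0 and 0.05 in untreated WT and at 0.38, 0.36 and 0.68 after LPS. The values went from 0.05, 0.19 and 0.07 to 0.49, 0.76 and 0.61 TPM in GILZ KO and from 0.38, 0.33 and 0 to 0.49, 0.83 and 0.33 TPM in GILZ TG, whose groups overlapped. In GILZ TG the call was lost without LPS replicate 2 (edgeR adjusted p = 0.0871). With 0 to 7 reads in the untreated libraries, Adm passed the filter of the main fit through LPS libraries only, so its calls are not independent of that filter. In no genotype was Adm tested with the stricter filter or with only the 6 libraries compared. On the TPM scale the rise of Adm in WT (log2 2.09) was smaller than that of Pfkfb3 (2.77). Bnip3, a mitophagy receptor, was called higher in WT (0.29) and GILZ KO (0.37) while its TPM fell, and not in GILZ TG (-0.11). In WT it was lost without untreated replicate 1 or 2 (adjusted p = 0.145 and 0.0873 from edgeR).

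The second comparison asked whether the genotypes differed within a treatment. Each fit took the 9 libraries with the same treatment, which left 33 members tested without treatment and 34 after LPS. The 3 comparisons of a treatment share libraries. With 3 preparations against 3, an exact permutation test of a single gene cannot go below 0.1. Between GILZ KO and WT, no member passed the threshold of edgeR's test without treatment, where 0.0951% of all genes did, and none after LPS, where 0.0822% did. At an unadjusted p under 0.05 there were 2 and 5 members, against 9.6% and 9.63% of all genes, and with DESeq2 none in either treatment. The groups did not overlap for 5 members in each treatment, against 17.2% and 16.3% of all genes. Hk1 was higher in all GILZ KO libraries than in WT in both treatments, with a log2 fold change of 0.13 and 0.14 that did not pass (adjusted p = 0.493 and 0.472 from edgeR).

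Between GILZ TG and WT without treatment, no member passed the threshold in edgeR, where 0.642% of all genes did. The count was 13 at an unadjusted p under 0.05, against 14.1% of all genes, and 4 with DESeq2 (Hk1, Pfkl, Aldoc and Pgk1), against 2.52%. The groups did not overlap for 10 members, against 14.9% of all genes. After LPS, 1 member was lower in GILZ TG, Bnip3, where 0.46% of all genes passed, and the groups did not overlap for 9 members, against 15.2% of all genes. Without GILZ TG replicate 3 the number of members called was 6 in each treatment, while the share of all genes called rose to 5.16% without treatment and 8.52% after LPS. Without GILZ TG replicates 1 and 2 it was 0 in each (0.199% and 0.341% of all genes), with the 1 remaining library taken to vary like the other groups.

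Between GILZ KO and GILZ TG without treatment, 2 members were higher in GILZ KO, Hk2 and Aldoc, where 4.94% of all genes passed, and 11 members did not overlap, against 28.7% of all genes. Pfkl (0.30), Slc16a3 (0.44) and Egln3 (0.87) passed as higher in untreated GILZ KO only in alternatives, such as DESeq2 (adjusted p = 0.017, 0.0208 and 0.00832). They also passed with no filter (edgeR adjusted p = 0.0368, 0.0408 and 0.0248) and the replicate block (0.0225, 0.0131 and 0.0214). After LPS, 3 members were higher in GILZ KO, Pfkl, Bnip3 and Slc16a3, where 2.6% of all genes passed, and 10 members did not overlap, against 20.6% of all genes. Without GILZ TG replicate 3 the counts were 8 and 9, with 10.1% and 11.2% of all genes called in the same fits, and without GILZ TG replicates 1 and 2 both were 0 (0.26% and 0.27% of all genes). The part of the transcripts of other cell types in these differences was not tested.

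After LPS, Bnip3 was at 17.9, 18.4 and 18.2 TPM in GILZ TG, at 27.3, 27.4 and 29.2 TPM in WT and at 34.3, 24.5 and 31.7 TPM in GILZ KO. Without treatment it was at 29.8, 29.0 and 34.3 TPM in GILZ TG, 34.3, 36.5 and 40.0 TPM in WT and 39.3, 33.0 and 39.4 TPM in GILZ KO. All GILZ TG libraries after LPS, replicate 3 included, lay below all libraries of the other genotypes. The log2 fold change of GILZ TG against WT after LPS was -0.66 (SE 0.09, edgeR adjusted p = 0.0124), and that of GILZ KO against GILZ TG 0.73 (SE 0.09, edgeR adjusted p = 0.00633). Against WT it was lost without WT LPS replicate 2 (-0.66, adjusted p = 0.0644) or GILZ TG LPS replicate 2 (-0.63, adjusted p = 0.0752), and with GILZ TG replicate 3 alone it was -0.61 (adjusted p = 0.219). The adjusted p ranged from 9.89e-07 to 0.219 over the alternatives against WT, and from 4.55e-08 to 0.121 between GILZ KO and GILZ TG.

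Pfkl followed the same order after LPS, with all GILZ TG libraries between 22.5 and 23.5 TPM and the lowest GILZ KO library at 33.0 TPM. GILZ KO exceeded GILZ TG by 0.84 on the log2 scale (SE 0.09, edgeR adjusted p = 0.00352), and it was 0.77 with GILZ TG replicate 3 alone (adjusted p = 0.0724, the highest over the alternatives, which went down to 1.81e-12). Against WT, GILZ TG was at -0.49 (edgeR adjusted p = 0.0558), which passed with DESeq2 (adjusted p = 0.000574), with no filter (0.00279), with all 18 libraries in 1 fit (0.0122), with a replicate block (0.0487) and without GILZ TG replicate 3 (0.0133). Slc16a3 was at 60.5, 69.6 and 83.3 TPM in untreated WT, 73.8, 80.2 and 90.8 TPM in GILZ KO and 54.4, 54.3 and 65.5 TPM in GILZ TG. The values after LPS were 39.7, 43.5 and 57.3 TPM in WT, 69.7, 54.8 and 66.0 TPM in GILZ KO and 33.0, 37.6 and 45.5 TPM in GILZ TG. Slc16a3 was higher in GILZ KO than in GILZ TG after LPS by 0.71 on the log2 scale (SE 0.15, edgeR adjusted p = 0.0335). It was lost without GILZ KO LPS replicate 1 or 3 or GILZ TG LPS replicate 1 or 2 (0.63 to 0.66, adjusted p from 0.128 to 0.154), and it was 0.47 with GILZ TG replicate 3 alone (adjusted p = 0.409, with a lowest value of 0.000266 over the alternatives).

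Of the members called without treatment, Hk2 was higher in GILZ KO than in GILZ TG by 0.25 (SE 0.05, edgeR adjusted p = 0.0301), with no overlap between the libraries given above. Aldoc, a minor aldolase, was at 50.0, 48.7 and 49.0 TPM in GILZ KO, 42.0, 43.7 and 46.1 TPM in WT and 36.0, 32.2 and 38.6 TPM in GILZ TG. The 3 genotypes did not overlap. In GILZ KO, Aldoc exceeded the GILZ TG level by 0.44 on the log2 scale (SE 0.08, edgeR adjusted p = 0.0219). After LPS, Aldoc was at 34.3, 30.6 and 35.3 TPM in GILZ KO, 25.3, 27.1 and 33.8 TPM in WT and 26.2, 24.4 and 26.5 TPM in GILZ TG, with no call. Among the alternatives it was higher in GILZ KO than in GILZ TG after LPS with DESeq2 (0.35, adjusted p = 0.034). It also passed with no filter (edgeR adjusted p = 0.0383), all 18 libraries in 1 fit (0.0462) and without GILZ TG replicate 3 (0.0224). The calls of Hk2 and Aldoc without treatment were both lost when any of the 6 libraries other than GILZ TG replicate 3 was left out (Hk2 0.23 to 0.28 with adjusted p from 0.066 to 0.102, Aldoc 0.35 to 0.46 with adjusted p from 0.0566 to 0.102). With GILZ TG replicate 3 alone, the values were 0.34 (adjusted p = 0.109) and 0.31 (adjusted p = 0.173). Over all alternatives the adjusted p of Hk2 went from 0.00322 to 0.109 and that of Aldoc from 0.000293 to 0.173.

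For other members the GILZ TG libraries disagreed. Hif1a and Slc2a1 after LPS were low in GILZ TG replicates 1 and 2, at 62.4 and 67.9 TPM and at 60.4 and 60.4 TPM, whereas replicate 3 was at 87.3 and 90.3 TPM, within the WT range. The fibroblast, B cell and neutrophil markers were high in the same replicates 1 and 2. After LPS, 10 LPS response markers, such as Tnf, Il1b and Ccl5, summed to 19940 and 19720 TPM in these 2 libraries and to 26990 TPM in replicate 3. The WT libraries lay between 20150 and 23240 TPM and those of GILZ KO between 24740 and 25080 TPM. A link between these differences was not tested. Neither gene was called between GILZ TG and WT, but without GILZ TG LPS replicate 3 both were lower in GILZ TG after LPS, Hif1a by a log2 difference of -0.51 (edgeR adjusted p = 0.00141) and Slc2a1 of -0.52 (edgeR adjusted p = 0.0269). With replicate 3 kept, some alternatives called both genes higher in GILZ KO than in GILZ TG after LPS. Slc2a1 passed with DESeq2 (0.65, adjusted p = 0.00373), no filter (0.00246), the replicate block (0.0104) and all 18 libraries in 1 fit (0.0217). Hif1a passed with DESeq2 (0.36, adjusted p = 0.0356) and no filter (0.0313).

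**Figure D4:**
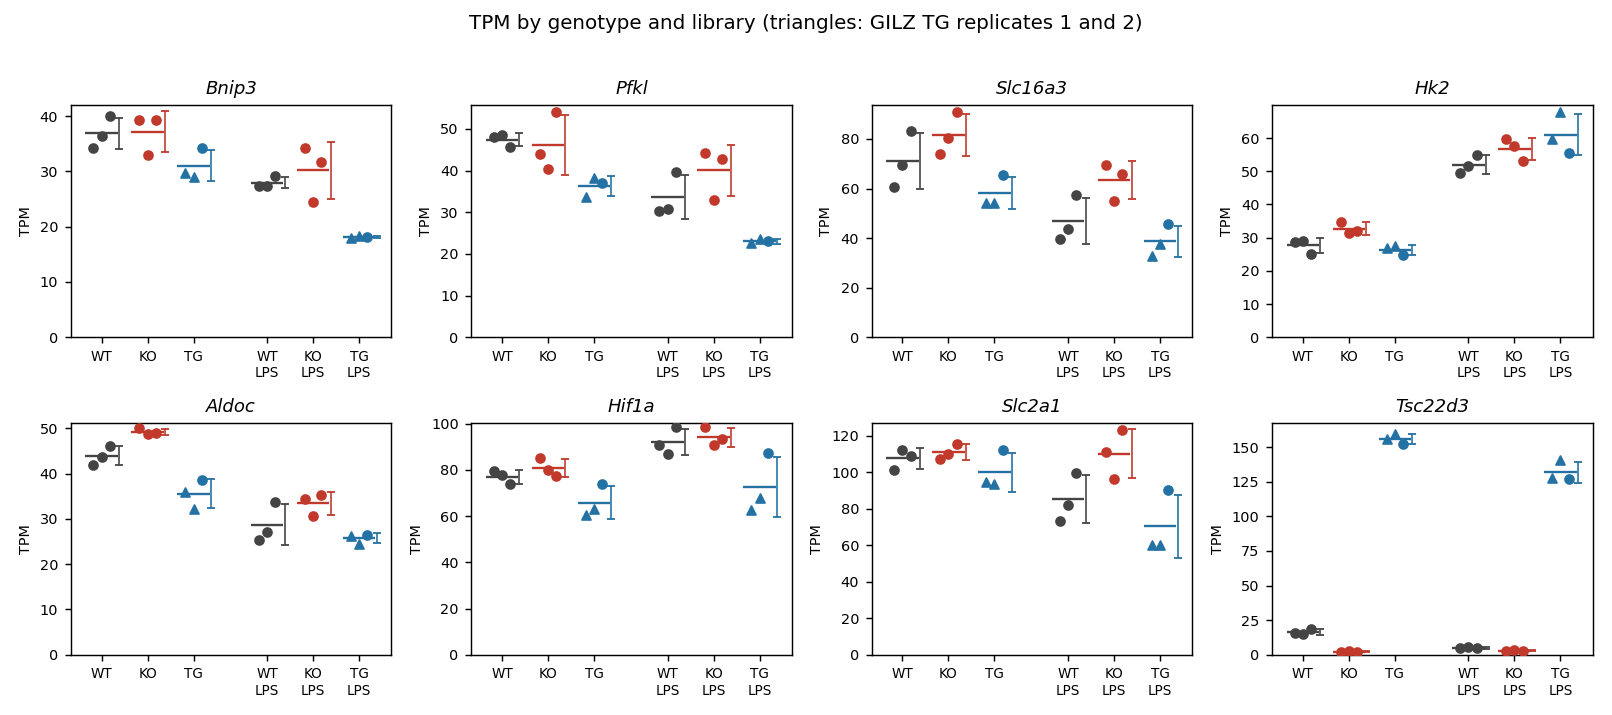
TPM (y axis, from 0) of 7 members and Tsc22d3 in each library by genotype and treatment, with the mean as a line and the SD as a bar (n = 3). Triangles mark GILZ TG replicates 1 and 2, which held more transcripts of other cell types. Bnip3 and Pfkl after LPS were at the same low level in all 3 GILZ TG libraries. Hif1a and Slc2a1 after LPS were low in the triangles, while GILZ TG replicate 3 lay within the WT range.

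The third comparison asked whether the LPS response itself differed between genotypes, as an interaction in the fit of all 18 libraries. No member passed the threshold of edgeR's test in GILZ KO against WT, where 0.0152% of all genes did, in GILZ TG against WT (0.00759%) or in GILZ KO against GILZ TG (0.121%). At an unadjusted p under 0.05 there were 1, 4 and 7 members, against 6.36%, 3.09% and 9.92% of all genes, and with DESeq2 0, 0 and 2 (Hk2 and Pfkl), against 1.21% of all genes in the last. The smallest adjusted p were 0.696, 1 and 0.111 (edgeR). The last was that of Hk2, whose response was weaker in GILZ KO than in GILZ TG by 0.37 (difference -0.37, SE 0.09). Pfkl had a difference of 0.51 in the other direction (SE 0.13, edgeR adjusted p = 0.142). For Bnip3 the difference was 0.48 (SE 0.15, edgeR adjusted p = 0.213), and for Slc2a1 0.51 (SE 0.21, edgeR adjusted p = 0.412). With the preparation as a block, the difference between GILZ KO and GILZ TG passed for Slc2a1 (0.53, edgeR adjusted p = 0.0438) and Pfkl (0.51, edgeR adjusted p = 0.0239), where 1.09% of all genes passed. Same-numbered untreated and LPS libraries deviated together in GILZ TG (r from 0.27 to 0.60 across genes) but not in GILZ KO (-0.033 to 0.095). Whether the numbers mark the same preparation in GILZ KO cannot be told from these values. A difference of the LPS response between genotypes was thus not shown for Bnip3 in either of these fits, and for Slc2a1 and Pfkl it depended on the fit.

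Related genes were read from 3 further lists. Of 36 other genes of glucose and pyruvate use, 25 were tested, and LPS in WT raised 6 and lowered 12, with a median log2 fold change of -0.25. The largest rises were those of Mpc1, a subunit of the mitochondrial pyruvate carrier (0.71), Dld, a subunit of pyruvate dehydrogenase (0.69), and Pgm1 (0.36), with a lower mean TPM for Pgm1. The largest falls were those of Pfkfb2 (-1.38), Slc16a6 (-1.27) and Bpgm (-1.08). In GILZ KO 7 rose and 11 fell, and in GILZ TG 6 rose and 10 fell.

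All 10 genes of the pentose phosphate pathway, which makes NADPH, were tested, and in WT 2 rose and 3 fell (median 0.0075). These were Rpe (0.87) and Pgd (0.26, with a lower TPM), and Shpk (-1.11), H6pd (-0.50) and Prps1 (-0.32). In GILZ KO 4 rose and 3 fell, and in GILZ TG 3 rose and 3 fell. Of 37 further hypoxia genes 34 were tested, and 12 rose and 10 fell in WT (median 0.079). Edn1, which encodes the vasoconstrictor endothelin-1, rose most (10.3, from 0.15 to 120.1 TPM), and Cited2, a negative regulator of HIF-1, rose by 2.57. Angptl4 (-2.38), Ankrd37 (-2.02) and Rora (-1.44) fell most. The counts were 12 and 11 in GILZ KO and 12 and 9 in GILZ TG. None of these lists held a larger share of changed genes than 72%, against the shares over all genes given above.

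Between genotypes, the lists on glucose use and the pentose phosphate pathway each held 1 call, both lower in untreated GILZ KO than in GILZ TG, G6pc3 (-0.35) and Taldo1 (-0.20), where 4.94% of all genes passed. From the hypoxia list, Ak4, a mitochondrial adenylate kinase, was lower in untreated GILZ TG than in WT (-1.13, SE 0.19, edgeR adjusted p = 0.0328), at 1.08, 0.93 and 1.09 TPM against 2.05, 2.54 and 2.12 TPM. Against GILZ TG, GILZ KO was higher for Ak4 in both treatments (1.22 and 1.17) and for Kdm3a without treatment (0.31) and Hilpda after LPS (0.62). It was lower for Cited2 in both treatments (-0.27 and -0.84). After LPS, where 2.6% of all genes passed between these 2 genotypes and 0.46% between GILZ TG and WT, Tfrc was lower in GILZ TG than in WT (-0.54). In the interaction, Hilpda alone was called, with a response 0.75 larger in GILZ KO than in GILZ TG (SE 0.13, edgeR adjusted p = 0.0238), where 0.121% of all genes passed. Each call named from these 3 lists was lost when at least 1 library other than GILZ TG replicate 3 was left out (adjusted p up to 0.154), and each was lost with GILZ TG replicate 3 alone (0.0887 to 0.378), in the same direction.

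**Figure D5:**
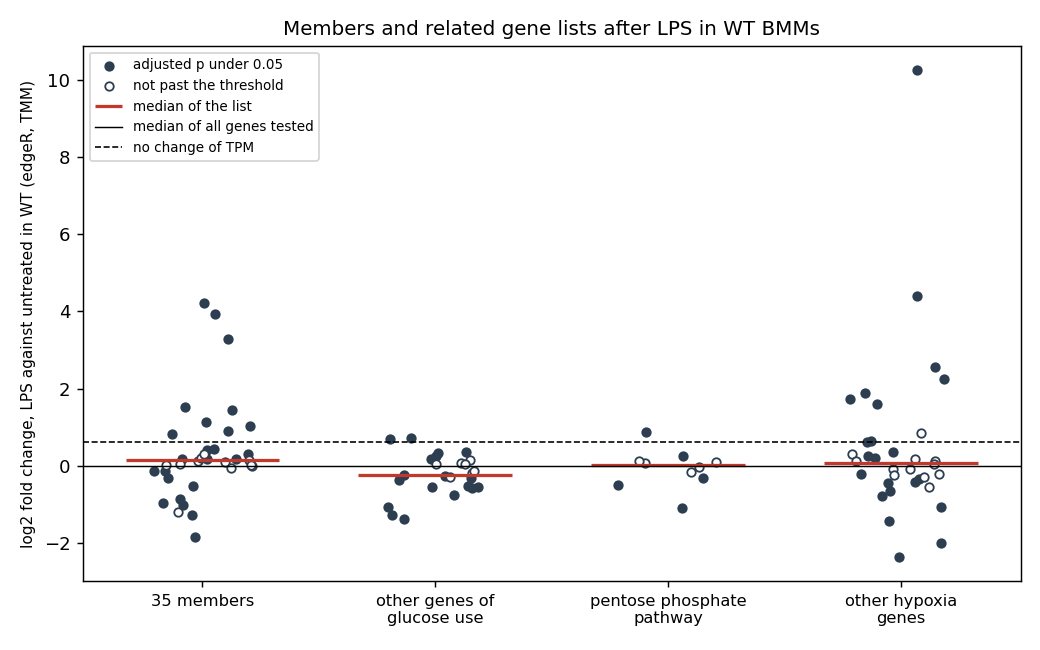
Log2 fold change after LPS in WT (y axis, TMM scale) of each tested gene of the members and of 3 related lists, with the median of each list in red, the median of all genes as a solid line and the level of no change in TPM as a dashed line. The medians of the 4 lists lie between -0.25 and 0.14, while single genes such as Edn1 (10.3) and Angptl4 (-2.38) lie far apart.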

How the data were processed

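RNA-Seq libraries (poly(A)-selected, directional, single reads) of 18 BMM samples were analysed. The authors checked reads with FastQC 0.11.2 and mapped them to mouse GRCm38 (mm10) with the grape-nf pipeline. Per library, the deposited data give the expected count of each gene (estimated reads, not normalized) and the TPM that the authors' pipeline computed from it. The authors' DESeq2 1.40.2 tables hold fold changes, test scores and p-values of their own comparisons, of which only the gene symbols were used. A row that names no gene was found in 14 of the 18 libraries, without values, and was left out.

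Expected counts were rounded, filtered by filterByExpr, normalized by TMM and tested with edgeR 4.0.16 in R 4.3.3. LPS effects and interactions were fitted over all 18 libraries (6 group means) and genotype effects over the 9 libraries of a treatment. P-values were adjusted over all genes by the Benjamini-Hochberg method. Standard errors are the fold change divided by the root of F. Members and gene lists were chosen with earlier results of these data known. Named in full were Tsc22d3, members called in a genotype comparison, the 5 largest rises and falls after LPS in WT among members called, the hexokinase and phosphofructokinase isoforms, Ldha, Ldhb, Slc2a1, Slc2a3, Slc2a6, Hif1a and Egln3. From the related lists, the 3 largest rises and falls after LPS in WT were named, and genes called between genotypes were added after their values were seen, except that 1 gene is not reported here.

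Alternatives were DESeq2 1.42.0, its size factors, no and a stricter filter (10 counts), limma 3.58.1 on log2(TPM + 1) and log2(TPM + 0.1), a replicate block, other sets of libraries and each replicate left out. The labels number the preparations. Untreated and LPS libraries with the same number deviated from their group means together in 3 of 3 pairs of GILZ TG (r from 0.27 to 0.60). The same held for 1 of 3 pairs of WT and 0 of 3 of GILZ KO. The main fits used no pairs. As an alternative for the LPS effect and the interaction, the replicate block paired untreated and LPS libraries by number in all 3 genotypes. Python 3.11.15 with matplotlib 3.10.9 drew the figures.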

Additional observations from a re-analysis of the deposited data

How the results depend on the processing

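The total LPS counts of the members stayed within 1.5 times under all alternatives, whereas the genotype counts did not. The split into higher and lower did not stay with limma on TPM, at 8 and 23 in WT, 7 and 20 in GILZ KO (7 and 19 with a pseudocount of 0.1) and 7 and 24 in GILZ TG, or, for the 9 lower in WT, with only the 6 libraries compared (6). The depth limits genes with few reads such as Adm and Pdk4, and 1 library decided several calls. Without each replicate in turn, the count was 0 to 6 in GILZ TG against WT without treatment and 0 to 6 after LPS, 0 to 8 in GILZ KO against GILZ TG without treatment and 2 to 9 after LPS, and 0 to 2 for the difference of the LPS response between GILZ KO and GILZ TG. The highest value was always that without GILZ TG replicate 3. DESeq2 called 4 members in GILZ TG against WT without treatment and 2 after LPS, 6 in GILZ KO against GILZ TG in both treatments, and 2 in the interaction of GILZ KO and GILZ TG. Without a filter the counts were 5 in untreated GILZ KO against GILZ TG, 2 in GILZ TG against WT after LPS and 6 in GILZ KO against GILZ TG after LPS. With limma on TPM, 1 member passed in untreated GILZ KO against GILZ TG and 0 in GILZ TG against WT after LPS with either pseudocount, and 0 in GILZ KO against GILZ TG after LPS with a pseudocount of 0.1. All 18 libraries in 1 fit gave 2 and 6 members after LPS. Without GILZ TG replicates 1 and 2, an alternative chosen after seeing the data, no member was called in either comparison with GILZ TG in either treatment, and 18 were called for LPS in GILZ TG. The cause of these changes was not tested. The share of all genes called also differed between fits, as given above for edgeR and DESeq2 in GILZ TG against WT without treatment. A larger count of members is therefore not by itself a result about the members.

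Same-numbered untreated and LPS libraries of a genotype had deviations correlated above 0.1 in 4 of 9 pairs (-0.033 to 0.60). Same-numbered libraries of different genotypes had them in 2 of 18 (-0.14 to 0.24). Within GILZ TG, 3 of 3 pairs were above 0.1. A low correlation does not show that libraries of the same number came from different preparations, and the main fits used no pairs. With a replicate block the counts were 27, 28 and 25 members for LPS in WT, GILZ KO and GILZ TG. The replicate block gave 5 in untreated GILZ KO against GILZ TG, 4 in the same comparison after LPS, 2 in GILZ TG against WT after LPS and 2 (Slc2a1 and Pfkl) in the interaction of GILZ KO and GILZ TG. These counts, too, have to be read against the share of all genes called in the same fit.

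On the TPM scale, by construction without the TMM shift, some LPS changes had the opposite sign. These differences passed the threshold of limma on TPM for all but Vhl in each genotype and Slc2a1 and Pfkl in GILZ KO, whose TPM groups overlapped. With limma on log2(TPM + 1), the log2 fold changes in WT were -0.42 for Gapdh, -0.24 for Pgk1, -0.44 for Eno1, -0.45 for Ldha, -0.094 for Vhl and -0.38 for Bnip3. In GILZ KO they were -0.016 for Slc2a1, -0.20 for Pfkl, -0.48 for Aldoa, -0.40 for Gapdh, -0.21 for Pgk1, -0.41 for Eno1, -0.39 for Ldha, -0.18 for Vhl and -0.30 for Bnip3. In GILZ TG they were -0.44 for Aldoa, -0.37 for Gapdh, -0.27 for Pgk1, -0.44 for Eno1, -0.44 for Ldha and -0.16 for Vhl. With a pseudocount of 0.1 they differed only for Vhl (-0.10, -0.19 and -0.17) and Bnip3 (-0.40 in WT and -0.31 in GILZ KO). Of 1100 single-gene values under the alternatives, 956 kept direction and call, 102 kept the direction alone and 42 had the opposite sign.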
